A study of Mus musculus with 12 samples.

Results

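Adult knockout cells were compared with newborn wild-type cells over all genes: 3 libraries from Cbfbeta2 knockout mice at 1.5 months of age (1.5M KO) against 3 libraries from wild-type mice at day 5 after birth (P5 wt). These 6 libraries were chosen by genotype and age from the 12 of the series. The other 6 are wild type at 1.5 months (1.5M wt) and Cbfbeta2 knockout at day 5 (P5 KO), and serve here as reference levels. The question is whether the adult knockout cells hold the expression state of newborn cells or have a state of their own. Every library came from 100 epidermal cells of the sort gate CD45+CD3-CD11b+MHCII+, which holds Langerhans cells and can hold other myeloid cells with the same surface markers. According to the labels the replicates are independently prepared libraries, with no animals named, so p-values measure the spread between preparations, which may be technical. Age and genotype both differ between the 2 groups, and their parts in a difference cannot be told apart.

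Langerhans cells are the antigen-presenting cells of the epidermis. Their precursors are macrophage-like and monocyte-like cells that enter the skin before birth, and after birth they acquire langerin, epithelial adhesion proteins and abundant MHC class II under TGF-beta signalling. Runx transcription factors act on DNA with a common partner, core-binding factor beta, and Cbfbeta2 is one of the splice forms of that partner.

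The values are molecule counts that the authors scaled to the same total in every library (scaled counts). A value is thus a share of the molecules of a library, and RNA per cell was not measured here. From the smallest step of the values, the P5 wt libraries held about 34192 to 52208 molecules and 6878 to 8123 detected genes, and the 1.5M KO libraries 74620 to 77419 molecules and 7951 to 8222 genes. A count of 0 in a whole group allows up to 3 molecules over its 3 libraries, a mean of 0.895 scaled counts in P5 wt and 0.485 in 1.5M KO. This limit covers counting error only. Itgam, which encodes the CD11b of the sort gate, was at 4.26, 7.59 and 2.93 in P5 wt and 11, 11.9 and 10.5 in 1.5M KO (limma adjusted p = 0.17). Cbfb, the gene of the knockout, was at 4.97, 4.34 and 3.91 in P5 wt and at 1.92, 0.994 and 2.4 in 1.5M KO, with no overlap. Its adjusted p was 0.205 (95% interval of the log2 difference -1.80 to -0.19), and the counted 3' ends do not separate its splice forms. In 1.5M wt the Cbfb mean was 10.5, and against that group 1.5M KO was lower (log2 fold change -2.05 ± 0.39, SE; limma adjusted p = 0.00132). The sum of 4 Y-linked genes (Ddx3y, Eif2s3y, Kdm5d and Uty) was 0 in all 3 P5 wt libraries and 0.958 to 1.60 in 1.5M KO, as it was above 0 in the other 6 libraries. Xist, the RNA of the inactive X chromosome, was at 36.9, 21.7 and 16.6 in P5 wt and at 7.19, 5.97 and 9.58 in 1.5M KO. The labels give no sex, and sex and the group cannot be told apart.

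On log2(scaled count + 1), with limma and Benjamini-Hochberg adjustment at 0.05, 327 of 10023 genes tested differed between 1.5M KO and P5 wt (3.26%). Of these, 217 were higher in 1.5M KO (2.17%) and 110 lower (1.1%), and 1463 genes had an unadjusted p under 0.05. The median log2 difference over all genes was -0.08. The share of higher among called genes was 66.4% here, 78.4% with median-of-ratios scaling and 33.7% with voom, in which the median difference was -0.45. In the same fit, 529 genes differed between 1.5M KO and 1.5M wt (5.28%), 522 between 1.5M wt and P5 wt (5.21%), 315 between 1.5M KO and P5 KO (3.14%) and 180 between P5 KO and P5 wt (1.8%). These comparisons share libraries with each other. In bulk libraries, fewer cells of a type and less RNA per cell cannot be told apart. With each of the 6 libraries left out in turn, 97 of the 217 higher and 24 of the 110 lower genes were called every time. Where a gene named below lost its call that way, its adjusted p without that library is given.

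**Figure D1:**
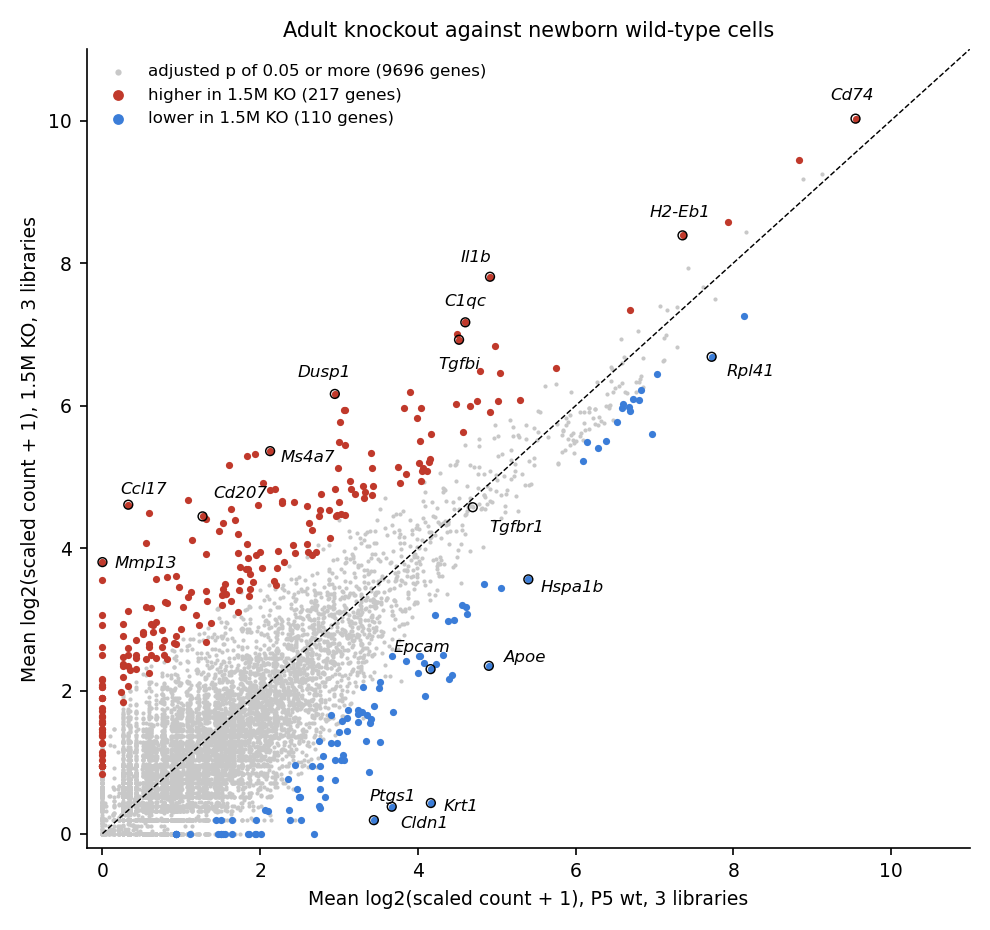
Mean log2(scaled count + 1) of each of the 10023 genes tested in P5 wt (horizontal) and 1.5M KO (vertical), 3 libraries each, with the 217 genes called higher in 1.5M KO in red, the 110 called lower in blue and the line of equal values dashed. Ccl17, Mmp13 and C1qc lie far above the line, Cldn1, Ptgs1 and Krt1 far below it, and Tgfbr1 close to it.

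Over whole profiles the 1.5M KO libraries lay nearest, on average, to P5 wt, and farther from P5 wt than from each other. The distance, a root mean square difference per gene on the log2 scale, averaged 0.909 over the 9 pairs of a 1.5M KO with a P5 wt library, 0.932 with P5 KO and 0.953 with 1.5M wt, and the ranges of the pairs overlapped. It was 0.632 between 1.5M KO libraries and 0.877 between P5 wt libraries. Over the 1197 genes with a mean of at least 5 the order was the same, at 1.05 to P5 wt, 1.15 to P5 KO and 1.32 to 1.5M wt, and the pairs did not overlap between groups. There the distance was 0.491 within 1.5M KO and 0.689 within P5 wt. With every library thinned to 30913 molecules it was 1.13, 1.14 and 1.17, against 0.975 within 1.5M KO and 1.02 within P5 wt, and the pairs with P5 wt and with P5 KO overlapped. Pairs share libraries, so no test was made. The P5 KO libraries also reached higher sums of markers of other cell types than P5 wt. Erythroid markers summed to 2.39 to 524 in P5 KO against 0 to 4.26 in P5 wt. Neutrophil markers summed to 85.8 to 397 against 11.7 to 23.6, and keratinocyte markers to 267 to 802 against 83.0 to 123. The part of these genes in the distances was not tested.

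**Figure D2:**
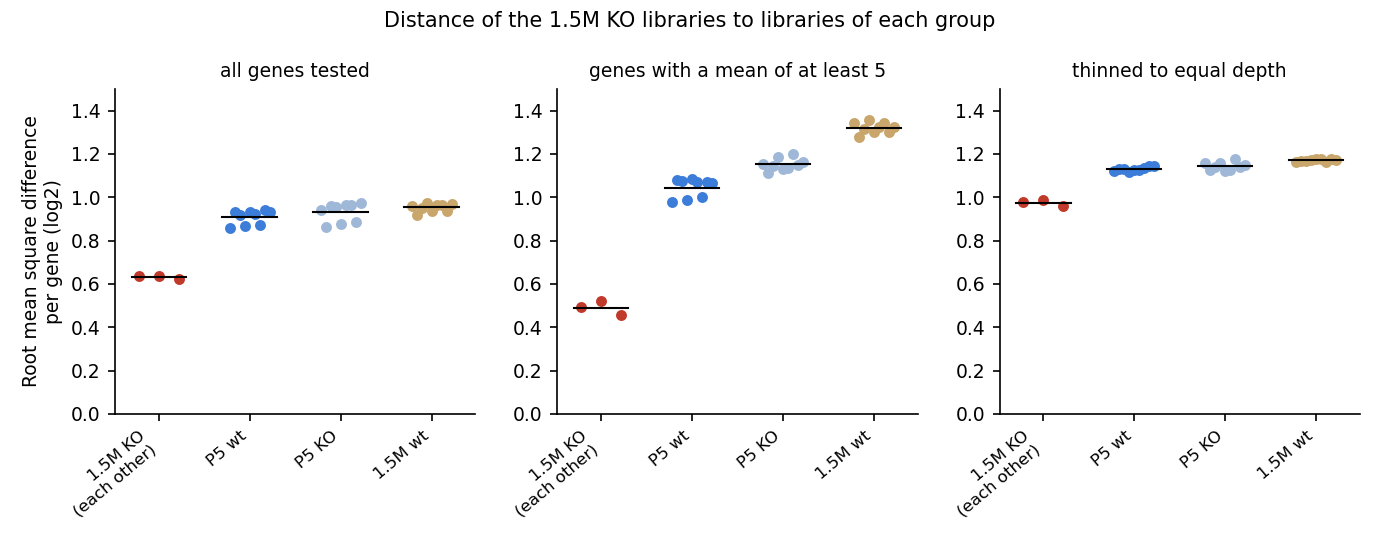
Root mean square difference per gene, on the log2 scale, between each 1.5M KO library and the libraries of each group, for all genes tested, for genes with a mean of at least 5 and after thinning to equal depth. Points are pairs of libraries and lines their means; P5 wt is the nearest of the other groups in each panel, by a small margin in the thinned one.

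Langerhans cell genes split into those that stood above the newborn level, those that stood below it and those that were not called. Of 18 tested members of a list of 24 Langerhans cell identity genes, 2 rose and 6 fell, with a median log2 difference of -0.50 against -0.08 over all genes. Of all 24 members, 7 had no molecule in any of the 6 libraries. Against 1.5M wt, 11 of the 18 were lower and 0 higher in 1.5M KO.

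Cd207 encodes langerin, the lectin of Birbeck granules that defines Langerhans cells. It was at 0.71, 1.08 and 2.93 in P5 wt and at 18.7, 19.4 and 24.9 in 1.5M KO, while no molecule was counted in P5 KO and the 1.5M wt mean was 214 ± 33.7 (SD, n = 3). All 3 adult knockout libraries were above all newborn ones, a pattern that 8.43% of all tested genes showed. The log2 difference was 3.18 ± 0.32 (SE; limma adjusted p = 2.54e-06), 13.3-fold between means, and 1.5M KO remained below 1.5M wt by a log2 difference of -3.29 ± 0.32 (adjusted p = 1.75e-07). H2-M2, a nonclassical MHC class I gene of Langerhans cells, was at 2.13, 0 and 0 in P5 wt and 16.8, 14.9 and 15.8 in 1.5M KO, again with no overlap (log2 difference 3.52 ± 0.44, adjusted p = 2.38e-05). Its 1.5M wt mean was 36.8, and the difference of 1.5M KO from that group was not called (-1.17 ± 0.44, adjusted p = 0.157).

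Among the adhesion genes through which Langerhans cells contact keratinocytes, Cldn1, Epcam, Cdh1 and Cd24a fell. Cldn1, which encodes claudin-1, was at 13.5, 8.68 and 13.7 in P5 wt and at 0.48, 0 and 0.479 in 1.5M KO (log2 difference -3.29 ± 0.35, limma adjusted p = 4.20e-06). The 1.5M KO libraries held at most 1 molecule of it, and 11.5% of all tested genes had all 3 libraries below all of P5 wt. Epcam, an epithelial adhesion molecule, was at 14.2, 17.4 and 19.5 against 5.28, 3.98 and 2.87 (log2 difference -1.86 ± 0.35, adjusted p = 0.00314). Cdh1, which encodes E-cadherin, fell from a mean of 23.4 to 9.47, but the 1.5M KO libraries were spread (16.3, 3.48 and 8.62) and its call was lost in 5 of 6 refits (adjusted p 0.257 without 1.5M KO 2, 0.0666 without 1.5M KO 3, 0.114 without P5 wt 1, 0.0828 without P5 wt 2 and 0.112 without P5 wt 3). Its values include fractions of a molecule, so its level is uncertain. Cd24a, a small surface glycoprotein, was at 5.68, 9.76 and 0.977 against 0, 0.497 and 0 (adjusted p = 0.0168), and the call was lost without the libraries that set it apart (adjusted p 0.0904 without P5 wt 1 and 0.117 without P5 wt 2).

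Keratinocyte markers were also lower in 1.5M KO than in P5 wt. Their summed level over the list was 83.0 to 123 in P5 wt and 14.9 to 29.7 in 1.5M KO, and 4 of 24 tested members fell and 0 rose, with Krt1 alone called in every refit. Krt1, a keratin of differentiating keratinocytes, was at 16.3, 23.3 and 12.7 against 1.44, 0 and 0 (log2 difference -3.74 ± 0.52, limma adjusted p = 9.67e-05). The P5 KO libraries had higher keratinocyte sums than P5 wt, 267 to 802, and a lower Cldn1 mean, 2.99 against 12. In 1.5M wt, with keratinocyte sums of 14.7 to 60.8, the means of Cldn1 and Epcam were 56.8 and 40.9. The part of keratinocyte RNA in the lower adhesion genes of 1.5M KO was not tested.

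Of 18 tested genes of eicosanoid synthesis, 3 fell and 1 rose, with a median of -0.13 against -0.08 over all genes. Ptgs1, the constitutive cyclooxygenase, was at 12.1, 9.04 and 8.79 in P5 wt and 0.48, 0 and 0 in 1.5M KO, where 1 molecule was counted in all (log2 difference -3.25 ± 0.33, limma adjusted p = 3.50e-06). Ltc4s, leukotriene C4 synthase, was at 9.95, 9.76 and 11.7 against 0.959, 1.99 and 1.44 (adjusted p = 0.00152, at a pseudocount of 0.1 it was 0.0669), and Alox5ap, the activator of 5-lipoxygenase, at 22, 26 and 13.7 against 4.8, 7.95 and 8.62 (adjusted p = 0.00584). For these 3 genes no 1.5M KO library reached the lowest P5 wt library. The 1.5M wt means were 33.4 for Ptgs1, 17.5 for Ltc4s and 22.6 for Alox5ap. The gene that rose, Pla2g7, lost its call in all 6 refits (adjusted p 0.0501 to 0.187).

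Other Langerhans cell genes were not called against P5 wt although 1.5M wt was far higher. Tbc1d4, a Rab GTPase-activating protein, was at 6.39, 5.42 and 8.79 in P5 wt and 5.75, 2.98 and 4.31 in 1.5M KO, with overlap, against a 1.5M wt mean of 111. Its 95% interval against P5 wt was -1.22 to 0.08 (limma adjusted p = 0.434), and its log2 difference from 1.5M wt was -4.41 ± 0.31 (adjusted p = 1.30e-09). Mfge8, a bridging protein for dying cells, was at 8.53, 3.25 and 4.88 against 5.75, 5.96 and 12.9 (interval -0.31 to 1.28), with 70.0 in 1.5M wt. Gsn, which encodes the actin-severing protein gelsolin, had means of 23 and 15.7 (adjusted p = 0.385), and Plek2 2.1 and 0.326 (adjusted p = 0.491), with 1.5M wt at 39.5 and 13.

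**Figure D3:**
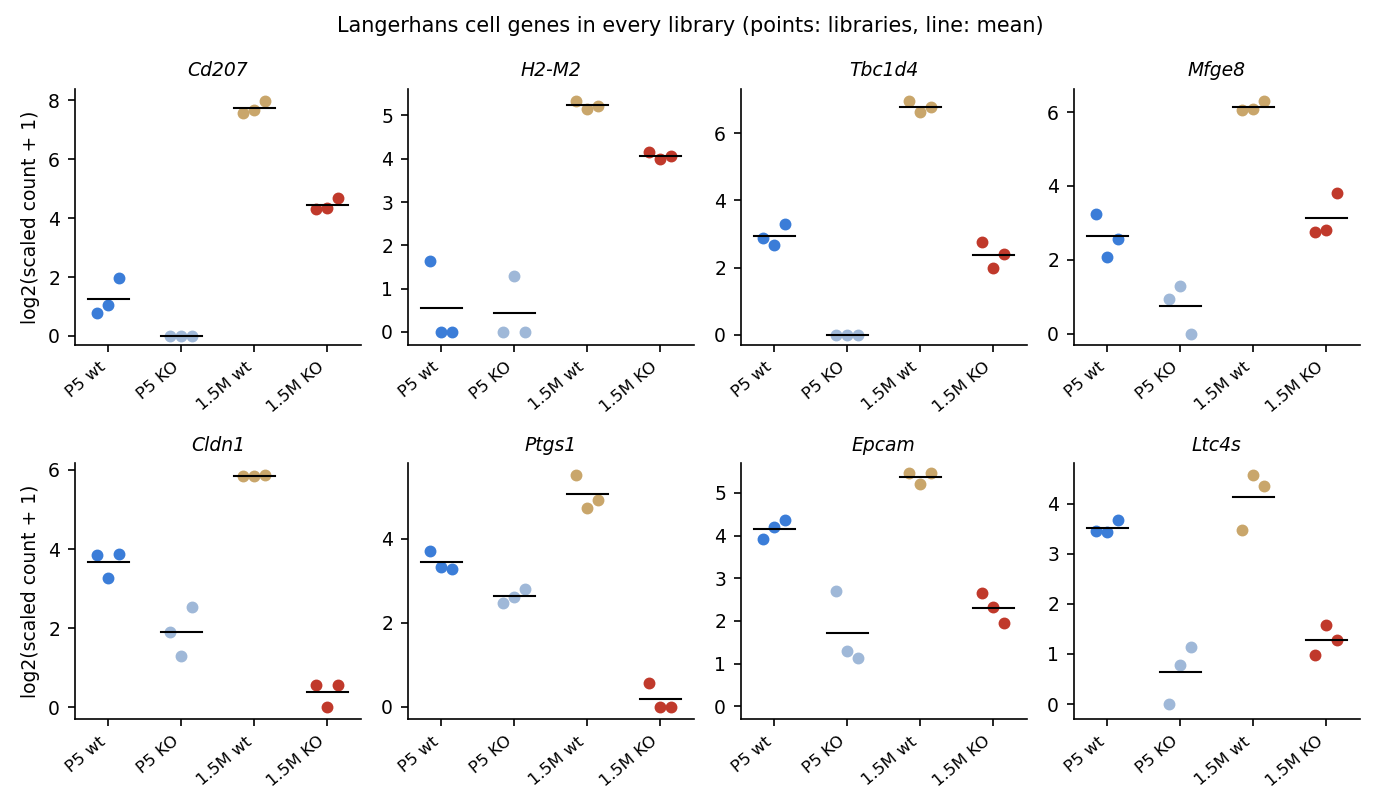
Log2(scaled count + 1) of 8 Langerhans cell genes in each library of the 4 groups, points being libraries and lines group means. Cd207 and H2-M2 in 1.5M KO lie between P5 wt and 1.5M wt, Tbc1d4 and Mfge8 overlap with P5 wt, and Cldn1, Ptgs1, Epcam and Ltc4s lie below P5 wt.

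The promoters of a gene that rose and of one that fell are shown because they carry matches to motifs of factors active in myeloid cells. They are the 250 bases before the RefSeq start (GRCm38.p6), written 5′ to 3′ on the strand of the gene, with motif matches in capitals. Cd207 (chr6:83671215-83677857 in GENCODE M21, minus strand) has its promoter window at chr6:83677858-83678107, and Ptgs1 (chr2:36230426-36252272, plus strand) at chr2:36230176-36230425.
Cd207: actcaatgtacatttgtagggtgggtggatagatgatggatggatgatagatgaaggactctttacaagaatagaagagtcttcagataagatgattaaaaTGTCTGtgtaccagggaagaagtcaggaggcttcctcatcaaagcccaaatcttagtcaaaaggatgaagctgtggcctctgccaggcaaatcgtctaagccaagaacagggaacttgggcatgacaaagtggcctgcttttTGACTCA
Ptgs1: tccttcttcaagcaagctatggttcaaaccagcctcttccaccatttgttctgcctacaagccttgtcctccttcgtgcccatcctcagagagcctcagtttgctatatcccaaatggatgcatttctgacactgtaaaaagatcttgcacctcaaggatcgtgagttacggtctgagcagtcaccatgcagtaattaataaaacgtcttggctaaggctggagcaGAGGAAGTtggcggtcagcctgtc
The Cd207 window holds an AP-1 match 7 bases before the start and a Smad match, on the other strand, 149 bases before it. The Ptgs1 window holds a PU.1 match 24 bases before the start. Neither holds a Runx match, and neither overlaps an annotated exon.

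Motifs were searched on both strands in RefSeq promoters from 250 bases before to 50 after the start, which were found for 168 of the 217 higher, 86 of the 110 lower and 8058 of the 10023 tested genes. The AP-1 letters TGANTCA were in 10.9% of 211 promoters of higher genes, 2.78% of 108 of lower genes and 5.32% of 10263 of all tested genes. For the PU.1 letters GAGGAAGT the shares were 6.64%, 2.78% and 3.39%, and for the Smad letters CAGACA 21.8%, 14.8% and 15.6%. The Runx letters TGTGGT were in 12.3%, 14.8% and 12.4%. These shares describe letters in the windows and no binding was measured.

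MHC class II genes that rose stood between newborn and adult wild type. H2-Eb1, a class II beta chain, was at 168, 142 and 181 in P5 wt and 333, 307 and 365 in 1.5M KO (log2 difference 1.03 ± 0.13, limma adjusted p = 3.64e-05), with a 1.5M wt mean of 689. H2-Aa, a class II alpha chain, was at 502, 427 and 439.6 against 666, 677 and 757 (log2 difference 0.62 ± 0.10, adjusted p = 8.48e-04), with 1089.5 in 1.5M wt. Both were without overlap, and 1.5M KO was below 1.5M wt for both (adjusted p = 1.15e-05 and 2.41e-04). Cd74, the invariant chain, had means of 753 and 1049, with 1614 in 1.5M wt (log2 difference 0.48 ± 0.10, adjusted p = 0.00821), and its call was lost at 0.0626 without 1.5M KO 3, 0.0689 without P5 wt 1 and 0.0546 without P5 wt 3. Under quantile normalization Cd74 is equal by construction in all libraries and H2-Aa lost its call (adjusted p = 0.0658). Of 17 tested genes of class II presentation, 3 rose and 0 fell, with a median of 0.30; the transactivator Ciita was at 4.97, 2.17 and 1.95 against 3.36, 1.49 and 4.31 (adjusted p = 1).

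Of 19 costimulation and maturation genes of dendritic cells, 2 rose and 0 fell (median 0.57). Cd83, a maturation marker that keeps class II on the surface, was at 8.53, 5.42 and 8.79 in P5 wt and 48.9, 42.3 and 37.9 in 1.5M KO (log2 difference 2.38 ± 0.29, limma adjusted p = 1.93e-05), without overlap. Cd86, a costimulatory ligand, was at 3.55, 5.42 and 3.91 against 7.19, 2.98 and 5.75 (adjusted p = 0.909). Ccr7, the receptor for migration to lymph nodes, was at 0 in P5 wt and at 5.75, 0.994 and 0 in 1.5M KO (adjusted p = 0.373), highest in the first library. Itgax, which encodes CD11c, rose from 8.53, 15.2 and 6.84 to 30.7, 32.8 and 39.3 (adjusted p = 0.00248). It was the 1 called gene of 20 tested of conventional dendritic cells, next to 3.26% called of all tested genes. Its call was lost at equal depth (adjusted p = 0.0618). Irf8, a dendritic cell and monocyte transcription factor, was at 9.95, 13 and 9.77 against 9.11, 11.4 and 12.5 (interval -0.88 to 0.91).

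Several markers of macrophages and of Langerhans cell precursors were far above the newborn level. Of 14 tested members of the precursor list, 4 rose and 0 fell (median 0.63), and these 4 were called in every leave-one-out refit. Ms4a7, a membrane protein of macrophages, was at 5.68, 2.17 and 2.93 in P5 wt and 41.2, 35.3 and 44.6 in 1.5M KO (log2 difference 3.24 ± 0.36, limma adjusted p = 6.90e-06). Pf4, a platelet and macrophage chemokine, was at 4.97, 6.51 and 0 against 26.9, 46.7 and 45 (adjusted p = 0.00278). Cx3cr1, the fractalkine receptor, was at 2.84, 2.17 and 0.977 against 15.3, 23.4 and 20.6 (adjusted p = 5.53e-05). None of these 3 genes overlapped between the groups. The call of Pf4 was lost at a pseudocount of 0.1 (adjusted p = 0.0928). In 1.5M wt, Ms4a7 and Cx3cr1 had no molecule, and the mean of Pf4 was 0.307.

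The rest of the precursor list was not called. Csf1r, the receptor of macrophage growth factor, had means of 48.5 and 76.8 (interval 0.21 to 1.12), Emr1, the gene of F4/80, 7.83 and 17.6 (interval 0.34 to 1.69), and the mannose receptor Mrc1 8.56 and 17.8 (interval 0.17 to 1.79). Csf1r and Emr1 were called with median-of-ratios scaling. Tissue macrophage markers were at or near 0 in both groups: Lyve1 at 0, 0 and 0.977 against 0 in all 1.5M KO libraries, F13a1 at 0, 1.08 and 0 against 0, and Cd163 at 1.42, 0 and 0 against 0, 0 and 1.92.

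Complement C1q, which tags dying cells and is made by macrophages, rose in all 3 of its chains. C1qa was at 27, 34.7 and 30.3 in P5 wt and 116, 109 and 115 in 1.5M KO (log2 difference 1.86 ± 0.23, limma adjusted p = 2.38e-05). C1qb was at 39.1, 29.3 and 16.6 against 83.4, 83 and 100.1 (adjusted p = 0.00284), and C1qc at 18.5, 25 and 27.4 against 129.96, 150.1 and 149.96 (log2 difference 2.57 ± 0.34, adjusted p = 4.74e-05). At a pseudocount of 0.1 the calls of C1qb and C1qc were lost (adjusted p = 0.215 and 0.108). For each chain the lowest 1.5M KO library was above the highest P5 wt library. The P5 KO means were 20.0, 21.6 and 24, while the 1.5M wt means were 5.4, 0.603 and 0.715. Of 13 complement genes tested, 4 rose and 0 fell; the fourth is Itgax, given above.

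Of 22 tested monocyte genes, 7 were called higher and 0 lower (median 0.66), next to 2.17% called higher of all tested genes. The list did not move as a whole, with 13 members above 0 and 9 below. Of the 7, 5 were called in each of the 6 leave-one-out refits. Cd14, the lipopolysaccharide coreceptor, was at 8.53, 11.9 and 3.91 in P5 wt and 48.9, 66.1 and 67.6 in 1.5M KO (log2 difference 2.86 ± 0.31, limma adjusted p = 6.30e-06). Tgfbi, a TGF-beta-induced extracellular matrix protein, was at 19.9, 26 and 20.5 against 98.8, 136 and 130.3 (log2 difference 2.40 ± 0.23, adjusted p = 2.54e-06). Cybb, which encodes the superoxide-producing subunit of the NADPH oxidase, was at 16.3, 17.4 and 11.7 against 52.3, 57.7 and 57 (log2 difference 1.83 ± 0.28, adjusted p = 2.50e-04). None of these overlapped, and no molecule of Tgfbi or Cybb was counted in 1.5M wt. Cybb was the 1 called of 6 oxidase genes: its partner Cyba was at 19.2, 22.8 and 22.5 against 28.8, 34.8 and 43.6 and Ncf1 at 4.26, 3.25 and 9.77 against 7.19, 3.48 and 6.71 (adjusted p = 0.379 and 0.97). Markers of freshly recruited monocytes were low in both groups, with Ccr2 at 4.97, 2.17 and 1.95 against 2.4, 1.49 and 0.479 and Plac8 at 0, 1.08 and 0.977 against 0, 2.48 and 0 (adjusted p = 0.548 and 0.975).

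Scavenger and efferocytosis genes were divided. Lrp1, a large endocytic receptor, was at 1.42, 8.68 and 3.91 in P5 wt and 22.5, 23.4 and 27.8 in 1.5M KO (limma adjusted p = 0.00153), and Trem2, a lipid receptor of macrophages, at 0.71, 2.17 and 0 against 5.28, 10.9 and 10.1 (adjusted p = 0.00351). Apoe, the lipid carrier that macrophages secrete, moved the other way, from 14.2, 48.8 and 34.2 to 2.88, 5.47 and 4.31 (log2 difference -2.55 ± 0.32, adjusted p = 3.02e-05), and no 1.5M KO library reached any other of the 12. At a pseudocount of 0.1 Lrp1 and Trem2 lost their calls (adjusted p = 0.0801 and 0.0602). The Apoe means of P5 KO and 1.5M wt were 63 and 30.7. In this list of 19 tested genes 5 rose and 1 fell, and of the 5, 2 (Lrp1 and Trem2) were called in every leave-one-out refit. In the lipid efflux list 3 of 28 rose and 1 fell, which is Apoe. Pltp (phospholipid transfer protein) rose from 0.71, 1.08 and 0.977 to 10.1, 9.44 and 14.9 (adjusted p = 0.00142, and 0.0653 at a pseudocount of 0.1). It alone of the 3 was called in every refit, and the others that rose are also in the scavenger list. Of 33 tested lysosomal genes, 1 rose and 0 fell (median 0.21), near the 2.17% of all tested genes that rose.

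A group of genes set the adult knockout libraries apart from all other libraries. For 244 of 10023 genes (2.43%) all 3 1.5M KO libraries were above all 9 others, and for 77 (0.768%) below all 9 others. Ccl17, a chemokine that attracts T cells through CCR4, was at 0, 0 and 0.977 in P5 wt and 48.4, 14.4 and 18.2 in 1.5M KO (log2 difference 4.28 ± 0.51, limma adjusted p = 1.65e-05), with the first 1.5M KO library the highest. Mmp13, a collagenase, had no molecule in P5 wt or 1.5M wt and was at 11.5, 12.4 and 15.3 in 1.5M KO, at least 14.6-fold higher than the 3 molecules that 0 counts allow over P5 wt (adjusted p = 1.98e-05). Mmp12, the macrophage elastase, was at 3.55, 1.08 and 1.95 against 57.1, 29.3 and 25.4 (adjusted p = 5.53e-05, and 0.0631 at a pseudocount of 0.1), and Dnase1l3, a secreted nuclease, at 0 in P5 wt against 11.5, 11.9 and 9.1, at least 12.1-fold higher (adjusted p = 5.53e-05). Cd81, a tetraspanin, was at 0.71, 0 and 0.977 against 17.7, 22.4 and 25.4 (log2 difference 3.91 ± 0.42, adjusted p = 5.43e-06). The means of these 5 genes in P5 KO were 0 for Ccl17, 0.303 for Mmp13, 0.606 for Mmp12, 0 for Dnase1l3 and 3.42 for Cd81.

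**Figure D4:**
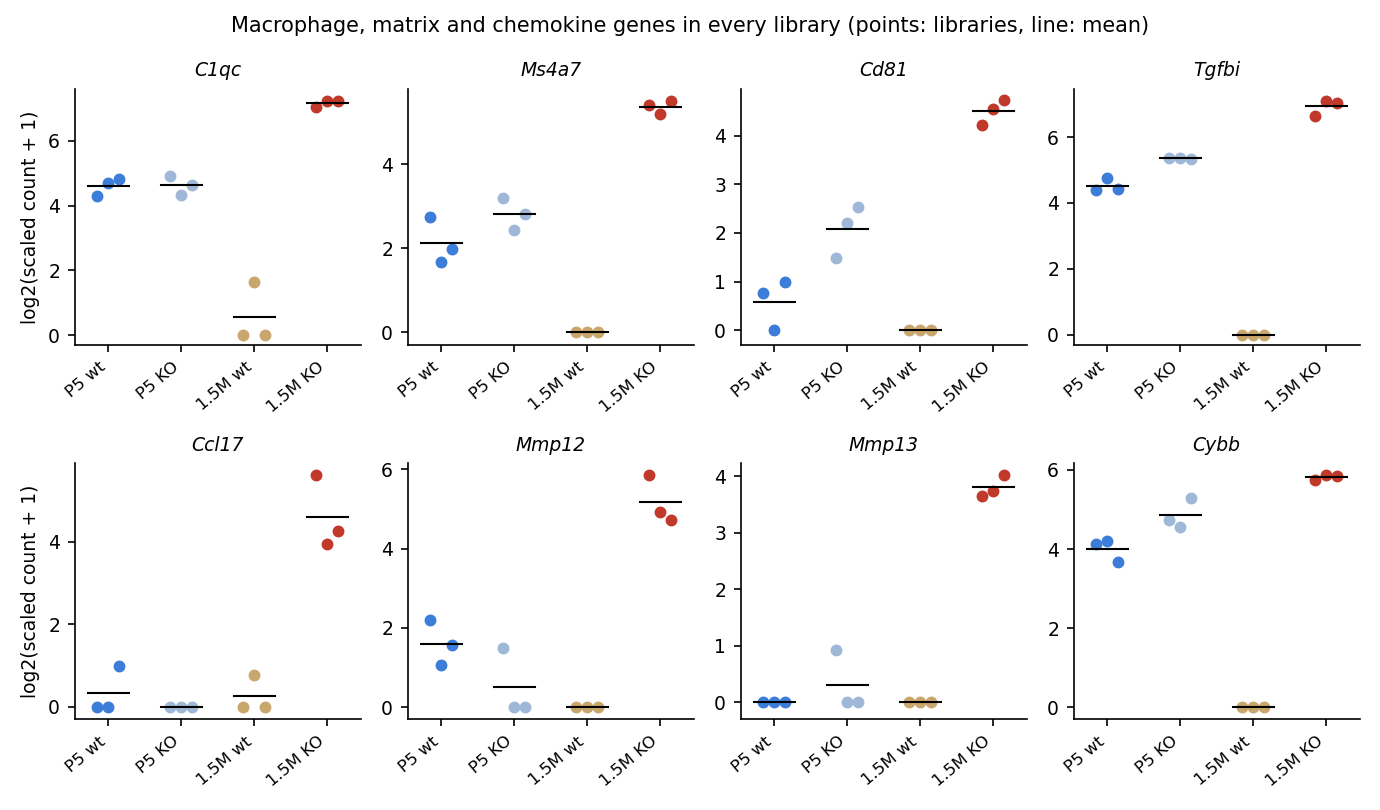
Log2(scaled count + 1) of 8 genes in each library of the 4 groups, points being libraries and lines group means. In every panel the 3 1.5M KO libraries lie above all 9 other libraries, and 1.5M wt is at or near 0.

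Among the genes lower in 1.5M KO than in all 9 other libraries were Cldn1, Ptgs1, Cd24a and Apoe, given above. Arrdc4, an arrestin-like protein, was at 7.1, 5.42 and 5.86 in P5 wt and 0, 0.497 and 0.958 in 1.5M KO (log2 difference -2.31 ± 0.43, limma adjusted p = 0.00241). Hspa1b, an inducible heat shock protein, was at 60.4, 28.7 and 40.4 against 14.1, 8.95 and 10.1 (adjusted p = 2.29e-04), and part of its molecules was shared with its near-identical copy Hspa1a, which also fell (48.3, 24.4 and 28.6 against 6.39, 8.95 and 16.8, adjusted p = 0.00288). Baz2b, a chromatin reader, had means of 6.78 and 1.28 and lost its call narrowly (adjusted p 0.0513 without 1.5M KO 2 and 0.0548 without 1.5M KO 3).

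The promoters of Mmp13 and Pf4, of which the first had no molecule and the second few in P5 wt, are shown in the same way. Mmp13 (chr9:7272514-7283331, plus strand) has its window at chr9:7272264-7272513, and Pf4 (chr5:90772435-90773383, plus strand) at chr5:90772185-90772434.
Mmp13: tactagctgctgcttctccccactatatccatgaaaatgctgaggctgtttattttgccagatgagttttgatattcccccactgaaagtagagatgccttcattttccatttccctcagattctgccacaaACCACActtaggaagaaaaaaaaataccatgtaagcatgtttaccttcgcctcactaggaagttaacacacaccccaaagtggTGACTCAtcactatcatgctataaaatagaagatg
Pf4: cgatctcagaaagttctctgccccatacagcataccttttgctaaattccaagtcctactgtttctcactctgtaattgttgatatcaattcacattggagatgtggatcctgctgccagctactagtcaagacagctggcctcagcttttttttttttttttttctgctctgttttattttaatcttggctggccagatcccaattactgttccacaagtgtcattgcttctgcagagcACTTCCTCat
The Mmp13 window holds an AP-1 match 35 bases before the start and a Runx match, on the other strand, 118 bases before it. The Pf4 window holds a PU.1 match on the other strand 10 bases before the start.

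Cytokines and early response genes were above the newborn level. Of 22 tested cytokine and feedback genes, 8 rose and 0 fell (median 1.05 against -0.08 over all genes), and 6 of the 8 were called in every refit. Il1b, which encodes interleukin-1 beta, was at 28.4, 27.1 and 32.2 in P5 wt and 187, 215 and 278 in 1.5M KO (log2 difference 2.89 ± 0.29, limma adjusted p = 2.54e-06), while 1.5M wt had a mean of 197. Tnf was at 4.26, 1.08 and 0.977 against 20.6, 13.4 and 21.1 (adjusted p = 0.00128). The NF-kappaB feedback genes rose as well, Nfkbiz from 3.55, 1.08 and 0 to 23.5, 26.3 and 24 (adjusted p = 7.25e-06) and Tnfaip3 from 4.97, 4.34 and 1.95 to 25.4, 26.3 and 30.7 (adjusted p = 1.65e-05). For Il1b and Tnfaip3 the difference of 1.5M KO from 1.5M wt was not called (adjusted p = 0.823 and 0.659). Socs3, an inhibitor of cytokine signalling, was at 4.26, 2.17 and 0.977 against 17.7, 20.4 and 22 (adjusted p = 3.03e-04, and 0.0632 at a pseudocount of 0.1), with 0.477 in 1.5M wt. These 5 genes had no overlap between P5 wt and 1.5M KO.

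Of 33 immediate early and heat shock genes, 13 rose and 2 fell (median 0.70), and 9 of the 13 and both that fell were called in every refit. Dusp1, a phosphatase of MAP kinases, was at 7.1, 5.42 and 7.81 in P5 wt and 64.7, 80.5 and 68 in 1.5M KO (log2 difference 3.22 ± 0.25, limma adjusted p = 8.30e-08). The AP-1 subunits Fosb, Fos, Junb and Jund rose, Fosb from 9.95, 10.8 and 24.4 to 91.1, 61.1 and 68 (adjusted p = 1.65e-05) and Jund from 18.5, 14.1 and 13.7 to 47, 44.7 and 42.2 (adjusted p = 4.32e-04). Hspa5, a chaperone of the endoplasmic reticulum, rose from 8.53, 9.76 and 10.7 to 45.1, 41.3 and 32.6 (adjusted p = 6.53e-05). Their groups did not overlap. In 1.5M wt the means were 25.5 for Dusp1 and 132 for Fosb.

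Among 18 chemokines 4 rose, and of these Cxcl1, a neutrophil attractant, was at 0, 2.17 and 3.91 in P5 wt and 11.5, 13.9 and 17.7 in 1.5M KO (limma adjusted p = 0.00241). Cxcl2 rose at the threshold (adjusted p = 0.0478) with overlapping groups, and lost its call at 0.185 without 1.5M KO 1, 0.0688 without 1.5M KO 3, 0.237 without P5 wt 2 and 0.181 without P5 wt 3. Cxcr4, the receptor of CXCL12, was at 3.55, 1.08 and 4.88 against 38.8, 42.7 and 35.9 (log2 difference 3.39 ± 0.36, adjusted p = 4.20e-06), with no molecule in 1.5M wt. Of 14 chemokine receptors tested, 2 rose (Cxcr4 and Cx3cr1) and 2 fell. The 2 that fell, Ccr1 and Ccr6, had newborn means of 4.93 and 1.81 and adult knockout means of 0.639 and 0.16, and each lost its call in 4 of 6 refits. For Ccr1 the adjusted p was 0.151 without 1.5M KO 2, 0.143 without 1.5M KO 3, 0.0722 without P5 wt 1 and 0.136 without P5 wt 2, and for Ccr6 0.0502 without 1.5M KO 1, 0.23 without 1.5M KO 2, 0.224 without 1.5M KO 3 and 0.0956 without P5 wt 3.

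Of 21 tested members of a list of calcium-binding S100 proteins, annexins and some other genes, 7 rose (median 0.64), and these include genes of neither family. Of the 7, 4 were called in every refit, none of them an annexin. Anxa5, the annexin that rose, lost its call (limma adjusted p 0.175 without 1.5M KO 2, 0.0916 without 1.5M KO 3, 0.103 without P5 wt 1 and 0.086 without P5 wt 2). S100a6 was at 21.3, 15.2 and 6.84 in P5 wt and 75.8, 61.6 and 49.3 in 1.5M KO (log2 difference 2.14 ± 0.28, limma adjusted p = 3.69e-05), the related S100a10 at 10.7, 8.68 and 7.81 against 27.3, 24.9 and 23 (adjusted p = 0.00203) and S100a4 at 31.3, 25 and 18.6 against 75.3, 55.2 and 59.9 (adjusted p = 4.42e-04). All 3 were without overlap, and none was called against 1.5M wt. Among pattern recognition receptors 4 of 28 rose, with Clec7a, the beta-glucan receptor, at 0.71, 1.08 and 1.95 against 30.7, 5.47 and 24.4 (adjusted p = 2.29e-04, lowest in the second library) and Clec4n, the gene of dectin-2, at 0, 1.08 and 0.977 against 10.6, 9.44 and 12.9 (adjusted p = 2.12e-04). The inhibitory receptor Lilrb4 rose from 6.75, 6.51 and 0.977 to 21.8, 28.3 and 22.3 (adjusted p = 0.00113), and the other 3 called of 22 Fc receptor and signalling genes, Pilra, Fgr and Lilrb3, each lost their calls in at least 4 of 6 refits (adjusted p 0.059 to 0.221).

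TGF-beta signalling genes rose in 7 of 27 tested members and fell in 0 (median 0.20), with 3 called in every refit. Of the receptors, Tgfbr2 was at 1.42, 6.51 and 0.977 in P5 wt and 13.9, 18.9 and 11 in 1.5M KO (limma adjusted p = 0.00609, and 0.0595 at equal depth), while Tgfbr1 was at 30.6, 30.4 and 16.6 against 20.1, 23.4 and 25.4, with overlap and an interval of -0.77 to 0.53. Of the induced feedback genes, Pmepa1 was at 8.53, 4.34 and 8.79 against 30.7, 39.3 and 32.1 (log2 difference 2.14 ± 0.40, adjusted p = 0.00278, and 0.206 at a pseudocount of 0.1). Smad7, the inhibitory Smad, was at 2.13, 4.34 and 1.95 against 8.63, 16.4 and 10.5 (adjusted p = 0.007, and 0.0777 without 1.5M KO 2). In 1.5M wt the mean of Pmepa1 was 1.33 and that of Tgfbr1 1.67.

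Of 8 tested genes of Runx factors and their partners, 2 rose and 0 fell (median -0.07). Runx3 was at 7.82, 4.34 and 9.77 in P5 wt and 33.1, 21.4 and 19.6 in 1.5M KO (log2 difference 1.65 ± 0.34, limma adjusted p = 0.00577), with no overlap and a 1.5M wt mean of 15.7. Runx1 was at 2.13, 6.51 and 0.977 against 15.3, 9.94 and 11.5 (log2 difference 1.86 ± 0.41, adjusted p = 0.0103), and its adjusted p was 0.0566 without 1.5M KO 1, 0.0516 without P5 wt 1 and 0.0729 without P5 wt 3. The corepressor genes Cbfa2t2, Cbfa2t3, Tle3 and Tle4 were not called, nor was Runx2, which was at 0 to 0.977 in the 6 libraries.

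Genes that separated 1.5M KO from 1.5M wt but not from P5 wt were collected by their intervals. In all, 325 genes were higher and 204 lower in 1.5M KO than in 1.5M wt. For 32 of the higher and 58 of the lower genes, the 95% interval of the log2 difference from P5 wt lay within 1 on either side of 0. It did so for 1890 of all 10023 tested genes. That share is larger than among the higher genes. It is smaller than among the lower ones, but these include genes with no molecule in the 6 libraries. The difference of such genes from P5 wt is 0 by construction, so the share among the lower genes is not a result about them. Of the higher ones, Lst1, a myeloid adaptor, was at 12.1, 13 and 14.7 in P5 wt and 14.9, 14.4 and 18.7 in 1.5M KO (interval -0.43 to 0.92) against a 1.5M wt mean of 3.05. Ms4a6c, Gusb (beta-glucuronidase) and Tgfbr1 also belong here, with log2 differences from 1.5M wt of 3.54 ± 0.34, 1.89 ± 0.38 and 3.21 ± 0.31. Of the lower ones, Rgs2, a regulator of G protein signalling, was at 41.2, 35.8 and 34.2 in P5 wt and 25.4, 23.9 and 27.3 in 1.5M KO (interval -0.93 to -0.10) against 120.3 in 1.5M wt; it was without overlap and was called with quantile normalization. Ninl, Sept3, Col16a1 and Dmpk had no molecule in any of the 6 libraries and 1.5M wt means of 12.9, 10.7, 9.7 and 6.44. They were tested only because of molecules in the other groups.

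Most housekeeping genes were not called, but the ribosomal protein genes lay lower as a set. Cytosolic ribosomal protein genes had a median of -0.46 against -0.08 over all genes, with 72 of 75 below 0. For 56 of the 75, all 3 1.5M KO libraries were below all of P5 wt, as for 11.5% of all tested genes. Of the 75 genes 14 fell, Rpl41 from 190.4, 229 and 215 to 88.7, 118 and 102 (log2 difference -1.04 ± 0.14, limma adjusted p = 5.40e-05). With voom 35 of 75 fell and with the stricter filter 33, with median-of-ratios scaling 2 fell with a median of -0.26, at equal depth 4 fell, and the count was 2 to 6 with a single library left out (2 without P5 wt 3, 4 without 1.5M KO 1). Of 57 respiratory chain genes (median -0.25), 21 glycolysis genes (-0.05) and 35 interferon-stimulated genes (-0.06), 0 were called by limma in this comparison. With voom 0, 1 (higher) and 2 (lower) were called. Of 40 cell cycle genes 1 rose (Ccnd1) and 2 fell (Ccnd2 and Cdc20), and each lost its call without several libraries (adjusted p 0.0503 to 0.163). The proliferation marker Mki67 was at 6.39, 2.17 and 4.88 against 1.92, 2.98 and 4.31 (adjusted p = 0.828).

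**Figure D5:**
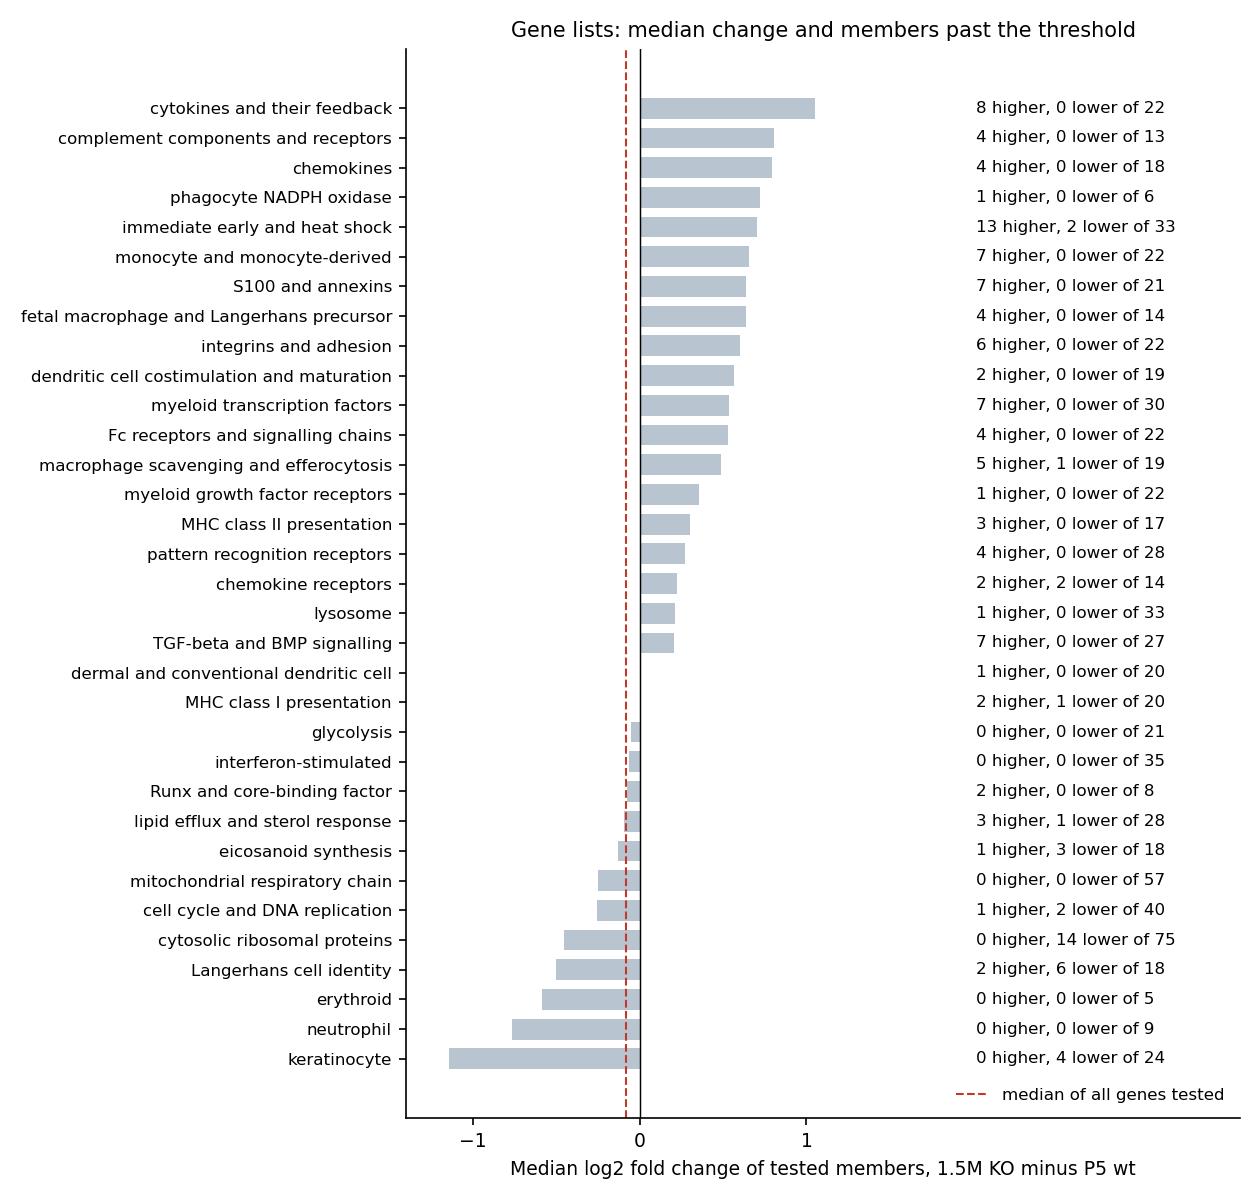
Median log2 difference (1.5M KO minus P5 wt) of the tested members of each gene list with at least 5 tested genes, with the number of members called higher and lower by limma at an adjusted p under 0.05. The dashed line is the median of all genes tested, -0.08; cytokine and complement lists have the highest medians and the keratinocyte list the lowest.

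In other groups of myeloid genes some members rose, next to 2.17% higher and 1.1% lower over all tested genes. A single called member of 22, as in the growth factor receptors below, is near that share. Of 22 integrin and adhesion genes tested 6 rose and 0 fell (median 0.60), with the hyaluronan receptor Cd44 at 10.7, 10.8 and 17.6 in P5 wt and 28.8, 28.3 and 30.2 in 1.5M KO (limma adjusted p = 0.00645) and the tetraspanin Cd9 at 22.7, 20.6 and 25.4 against 44.1, 54.2 and 47.4 (adjusted p = 0.00284). Of 30 myeloid transcription factors 7 rose and 0 fell (median 0.54). They include Nr4a1, an orphan nuclear receptor that is also an early response gene, at 9.24, 5.42 and 9.77 against 32.6, 26.4 and 24 (adjusted p = 3.23e-04). Of 22 myeloid growth factor receptors 1 rose, Il10rb (means 0.237 and 4.2, adjusted p = 0.0153), with 0.0786 without 1.5M KO 1, 0.0613 without 1.5M KO 2, 0.0572 without 1.5M KO 3, 0.0569 without P5 wt 2 and 0.061 without P5 wt 3. Of 20 MHC class I genes 2 rose, H2-M2 and the chaperone Calr, and 1 fell, H2-Q4, whose molecules are partly shared with other genes. The adjusted p of Calr was 0.0217, and 0.094 without 1.5M KO 3, 0.0733 without P5 wt 1 and 0.13 without P5 wt 2.

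Apart from the keratinocyte genes given above, neutrophil and fibroblast markers were also higher in sum in P5 wt. Neutrophil markers summed to 11.7 to 23.6 in P5 wt and 4.53 to 6.45 in 1.5M KO, without overlap. Cxcr2 was at 5.73, 4.88 and 9.78 against 5.49, 4.54 and 4.05 and made up most of the sum in 1.5M KO but not in P5 wt, while the defining marker S100a8 was at 0, 0 and 3.91 against 0 in all 3 adult knockout libraries. Erythroid markers summed to at most 4.26, and T cell, NK cell and ILC markers to at most 3.48, all of it Il7r (2.13, 1.08 and 0 against 2.4, 3.48 and 3.35). Fibroblast and endothelial markers summed to 0.977 to 11.9 in P5 wt and at most 0.479 in 1.5M KO, with Col1a1 at 0, 3.25 and 0.977 against 0. Mast cell, B cell and melanocyte markers summed to at most 2.93 in any of the 6 libraries. In these lists of 9 neutrophil, 5 erythroid, 3 T cell, 4 fibroblast, 2 mast cell, 1 B cell and 2 melanocyte genes tested, 0 were called by limma with all libraries, and 1 fibroblast gene fell without P5 wt 3. With voom 4 of the 9 neutrophil and 3 of the 4 fibroblast genes fell, and 0 of the others were called. The part of these cells in the lower genes of 1.5M KO was not tested.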

How the data were processed

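RNA of 12 libraries of 100 sorted cells was analysed, 3 for each genotype and age. The deposited table holds 23420 gene symbols; its values are a scaled signal, molecule counts that the authors scaled to an equal total per library, as the values show. ERCC spike-in RNA was added for normalization, per the labels' protocols, and was not used here. The reads were aligned to mm10 with TopHat 2, per the submitters' processing notes; the counting, the use of strand and the scaling are not given in the sources used here. Between 92.6% and 94.9% of values were whole multiples of 1 molecule (tolerance 0.01), under the 95% set for a count model, so limma 3.58.1 (R 4.3.3; Python 3.11.15, pandas 2.3.3, numpy 2.4.6, matplotlib 3.10.9) was fitted to log2(value + 1), with a trend, group means over all 12 libraries and Benjamini-Hochberg adjustment, for genes above 0 in at least 3 libraries. Fold changes on this scale understate those of low genes. The fit was tested on simulated data of 9599 genes for this comparison: genes changed by log2 2, 1, -1 and -2 were called in 83.7%, 8%, 3.7% and 24.5%, with 1 false call. The simulation drew all groups from the P5 wt means with the same spread setting for every gene, and changed only genes above a minimum level. It held no differences in cell content, so its false call does not give an error rate for the real data.

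Gene lists (38, covering cell types, pathways and housekeeping groups, with 10 members that had no row) and the comparison were chosen with earlier results of these data known. Lists share members, so a called gene can count in several lists. Named genes were, per direction, up to 15 called genes with the largest fold change, no overlap and a mean of at least 5 in the higher group; all tested members of the Langerhans cell, precursor, Runx and oxidase lists; up to 5 called members of each other list or its most abundant one; up to 10 genes per direction beyond all 9 other libraries; and up to 10 per direction that differed from 1.5M wt with a 95% interval against P5 wt within -1 to 1. Ccr2, Ccr7, Cd86, Cd9, Ciita, Col1a1, Cxcr2, Hspa1a, Hspa5, Itgam, Jund, Mki67, Nr4a1, Plac8 and Junb were named outside this rule, after their values were seen, and 2 genes that meet it are not reported here. Alternatives were other pseudocounts (0.1 and 10), filters, scalings, depths and models, leaving out each library, and the replicate number as a block. Coordinates are from GENCODE M21 (21737 genes matched by symbol) and promoters from RefSeq GRCm38.p6.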

Additional observations from a re-analysis of the deposited data

How the results depend on the processing

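Of the 327 genes called (217 higher, 110 lower), the count was 282 with the 6 libraries fitted alone, 343 with median-of-ratios scaling, 294 without a filter, 338 at a pseudocount of 10 and 307 with quantile normalization. At a pseudocount of 0.1, 221 were called, of which 67 lower, and with the stricter filter 425 of 1594 tested, of which 177 lower. At equal depth 182 were called, 126 higher and 56 lower, and with voom 866, of which 574 lower. The cause of these shifts was not tested. With each of the 6 libraries left out in turn the counts were 177 to 215 in all, 132 to 153 higher and 45 to 68 lower, with 198, 185 and 177 without 1.5M KO libraries 1, 2 and 3, and 215, 214 and 208 without P5 wt libraries 1, 2 and 3. Of the 108 named genes called, 39 lost the call at a pseudocount of 0.1, 32 at equal depth and 22 to 32 with a library left out; no named gene reversed under any alternative run. The mean distances from 1.5M KO to P5 wt, P5 KO and 1.5M wt were 1.13, 1.14 and 1.17 at equal depth and 1.05, 1.15 and 1.32 over genes with a mean of at least 5. Counts for the other comparisons were not recomputed. With the replicate number as a block, 306 genes were called (204 higher, 102 lower), 301 of them also called without it, and of the named genes 3 lost the call. Same-numbered libraries of 1.5M KO and P5 wt did not deviate together (correlations 0.0035, 0.0103 and -0.0031 over genes). Most genes were low and their counting error can hide a shared preparation, so this does not settle whether the numbers pair the libraries. P5 wt libraries held fewer molecules than 1.5M KO, so a low newborn level was measured less precisely than a low adult one.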
